A study of Mus musculus with 4 samples.

Results

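Closure of the cranial neural tube was examined through the DNA methylation of 10 genes that are known to be needed for it in mice, namely Grhl2, Grhl3, Pax3, Cited2, Alx1, Tfap2a, Twist1, Zic2, Shroom3 and Marcks. The genes were chosen by name for that known role, with earlier results of these data in view, and they are 10 of 20807 autosomal protein-coding genes annotated on GRCm38 (GENCODE vM21). Methylation was measured by whole-genome bisulfite sequencing of E11.5 brain from 4 male embryos, each giving 1 library. The libraries were a Tet1 KO and a WT brain from dams fed 30 ppm folic acid (FA), and a Tet1 KO and a WT brain from dams fed 3 ppm FA. The comparisons addressed how loss of TET1 changed methylation at each level of maternal FA, and how the FA level changed it within a genotype.

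All 4 embryos were of the strain 129S6.cg Tet1<tm1Koh>, in which the knockout allele carries a cassette at the start codon of Tet1 in every cell and was brought onto a 129S6 background. The dams were Tet1 HET and had been kept for at least 4 weeks on their diet, and both diets held the antibiotic succinyl sulfathiazole. Each brain was taken from forebrain to hindbrain, and the embryos came from different litters, so KO and WT were not littermates. Embryo numbers in the labels match embryos that the study lists as having a neural tube defect for both KO and as normal for both WT, so genotype and defect cannot be told apart here. With 1 library in a group, no spread between animals was measured, and the Fisher and Wald tests below compare the reads of libraries and not the conditions.

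The neural folds rise at the sides of the neural plate, bend, and meet at the midline, where they fuse under the surface ectoderm. The transcription factors Grhl2 and Grhl3 act mainly in the surface ectoderm, Pax3, Zic2 and Tfap2a act at the dorsal edge of the folds and in the neural crest, and Twist1 and Alx1 act in the cranial mesenchyme. Cited2 is a co-regulator of transcription. Shroom3 and Marcks act on the actin cytoskeleton of the neural epithelium. TET1 oxidises 5-methylcytosine towards its removal, mostly in CpG-rich DNA, and bisulfite sequencing reads 5-methylcytosine and 5-hydroxymethylcytosine as 1 signal. Tissue was whole brain in bulk, so a change of methylation within a cell type and a change in the share of cell types cannot be told apart.

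Mean depth over autosomal CpGs was 13.2 reads in the 30 ppm KO library, 14.3 in the 30 ppm WT, 21.2 in the 3 ppm KO and 16.2 in the 3 ppm WT. A level below is the share of methylated reads summed over the CpGs of a window that had at least 5 reads in all 4 libraries. The 10 genes with their flanks held 6522 such CpGs, and none had the pattern of a sequence variant between the genotypes. Start windows of the 6 neural marker genes were at 0 to 2.83% in every library, those of 5 mesenchyme markers at 0.384 to 9.74%, and those of 4 germline genes at 83.4 to 92.8%. The 5 surface ectoderm markers spanned 4.73 to 77.5% in the 30 ppm KO, 2.99 to 60.4% in the 30 ppm WT, 3.20 to 74.3% in the 3 ppm KO and 2.96 to 60.7% in the 3 ppm WT, and none was at 0. Of 6 markers of blood and endothelium, 5 were scored, at 2.26 to 93.7% over all libraries with medians of 85.6 to 88.1%. The files hold no expression, so the loss of Tet1 itself was not checked.

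Around each gene, 4 windows were scored. These were a start window within 1 kb of the annotated start, an upstream flank from 1 to 3 kb before it, a downstream flank from 1 to 3 kb after it, and a gene body beyond 3 kb. Differences are KO minus WT in percentage points, given with a 95% Newcombe interval that covers counting error only. A window was called when Fisher's exact test on the summed reads of both libraries gave an adjusted p below 0.05 over all genes and the difference was at least 10 points. CpGs of 1 fragment share reads, so these p values are too small.

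The start windows of the closure genes were nearly free of methylation in all 4 brains, and Grhl3 was the exception. In the other 8 genes that could be scored, levels ran from 0 to 8.37% over all libraries, and the highest was Shroom3 in the 30 ppm KO. Cited2 had no methylated read among 224 in the 30 ppm KO and none among 315 in the 3 ppm KO, which allow up to 1.34% and 0.952% (3 counts of the total, for counting error only). Its WT libraries stood at 2.34% and 1.74% in the same window. Zic2 had only 2 measured CpGs of 207 in the reference and was not tested. Twist1 had 9 of 184, and Cited2 had 25 of 145, against a median of 41.6% measured over all genes, so the 3 starts with the most CpGs were the 3 least covered. The number of reference CpGs in the start window exceeded that of 98.3% of genes for Twist1 and 99.3% for Zic2, while Grhl3, with 57 CpGs and an observed over expected CpG ratio of 0.42, lay below the all-gene medians of 64.0 and 0.486.

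**Figure D1:**
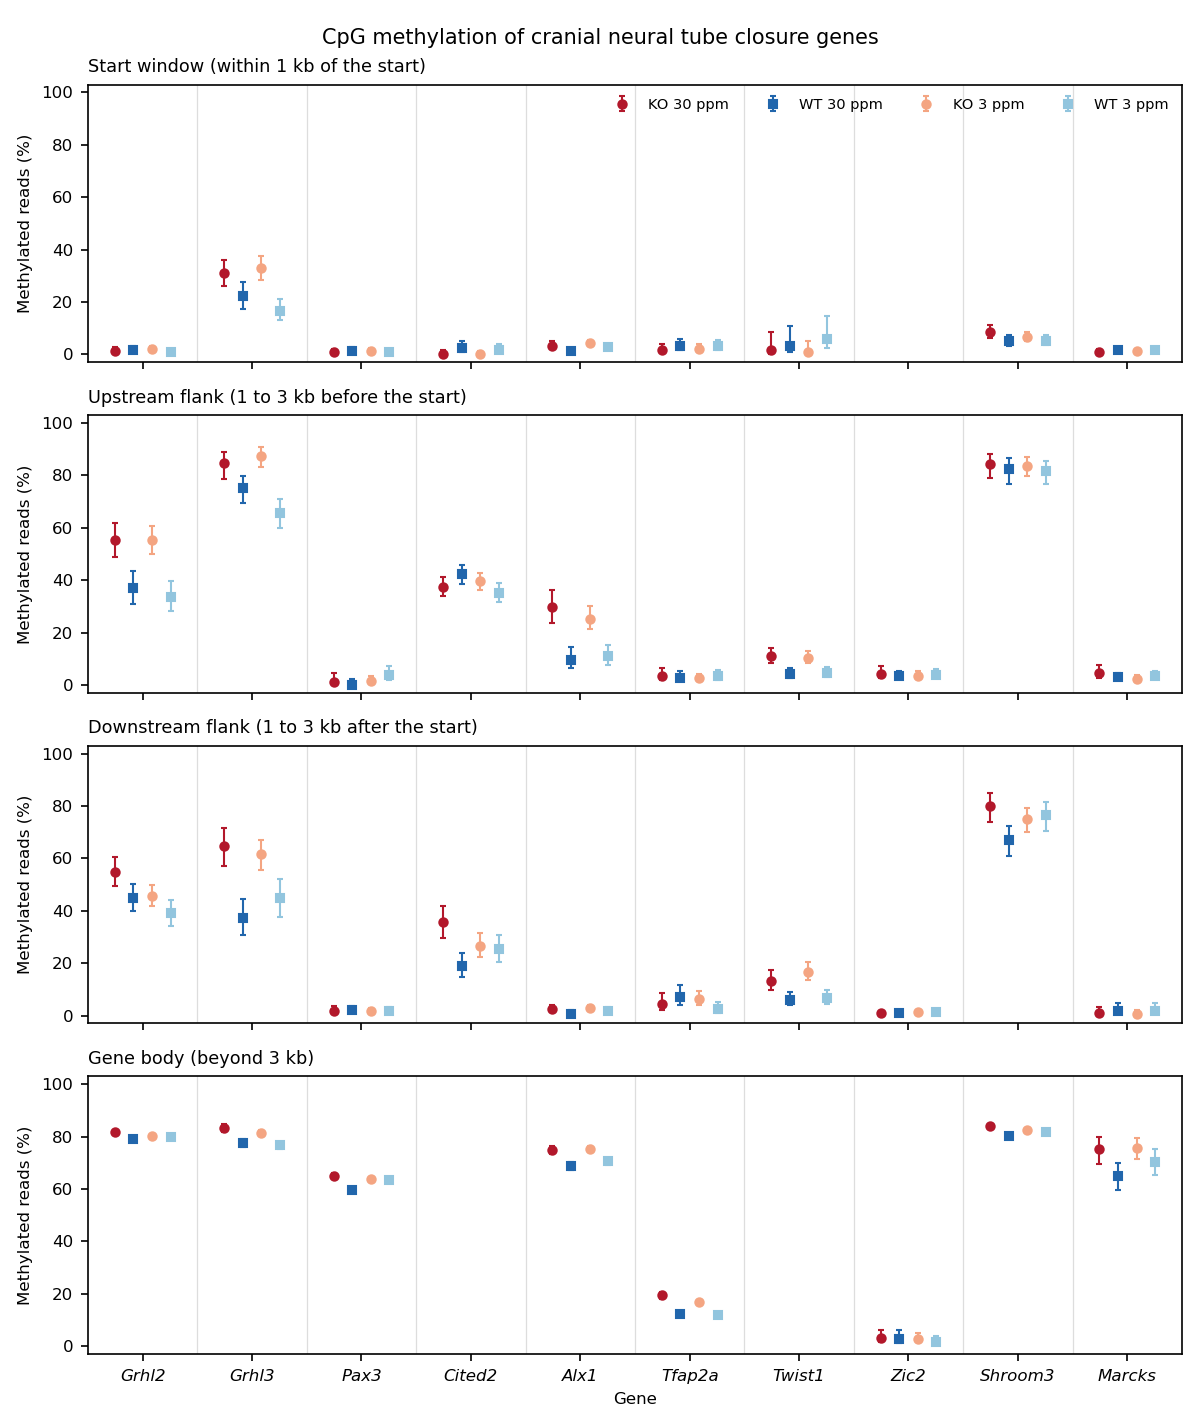
Share of methylated reads (%, y axis) in the 4 windows of each gene (x axis), with circles for KO, squares for WT, dark colours for 30 ppm and light colours for 3 ppm FA. Bars are 95% Wilson intervals of the counts in 1 library. Start windows lie near 0 except in Grhl3, and the KO circles stand above the WT squares in the flanks of Grhl2, Grhl3 and Alx1.

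Grhl2 and Grhl3 encode Grainyhead-like factors that drive epithelial genes in the surface ectoderm, and at least 1 flank of each was called higher in KO at both diets. Grhl2 lies at chr15:37233036-37363569 on the plus strand. Its start window was at 1.33% in the 30 ppm KO, 1.69% in the 30 ppm WT, 2.15% in the 3 ppm KO and 0.966% in the 3 ppm WT. In its upstream flank of 18 CpGs, levels were 55.3% against 37.1% at 30 ppm and 55.3% against 33.7% at 3 ppm, and the Wilson intervals of KO and WT did not overlap at either diet. The difference was 18.3 points (9.06 to 27.0) with a Fisher adjusted p of 0.00428 at 30 ppm, and 21.6 points (13.5 to 29.3) with a Fisher adjusted p of 2.5e-05 at 3 ppm. With at least 10 reads per CpG the 3 ppm difference was 15.8 points and no longer called. On the other side of the start, the downstream flank stood at 54.9, 45.0, 45.8 and 39.1% in the same order of libraries, and its differences of 9.89 and 6.71 points were not called. The 1 kb tile with the largest mean difference among those called, 1.54 kb before the start, was at 40% against 19.4% and at 38.6% against 15.2%. It was called at 3 ppm (Fisher adjusted p 0.0108 over all tiles) and not at 30 ppm (0.106). The tile also overlaps Gm16136, an antisense transcript.

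Grhl3 lies at chr4:135541888-135573630 on the minus strand, and among the 9 genes with a scored start it alone had intermediate methylation over its start window. The first 500 bp after its start, with 10 CpGs, were low, at 3.49% in the 30 ppm KO, 1.16% in the 30 ppm WT, 1.45% in the 3 ppm KO and 1.64% in the 3 ppm WT. Start window levels were 30.9% in the 30 ppm KO, 22.1% in the 30 ppm WT, 32.8% in the 3 ppm KO and 16.7% in the 3 ppm WT. The difference of 16.2 points at 3 ppm (9.92 to 22.1) was called with a Fisher adjusted p of 1.28e-05, and the 8.76 points at 30 ppm (1.41 to 15.8) were not, with an adjusted p of 0.086. A start window of 500 bp each side gave no call, with differences of -3.995 points (30 ppm) and 8.01 points (3 ppm). In the last 500 bp before the start, with 6 CpGs, KO was at 17.9% and WT at 34.5% with 30 ppm, and KO at 36.9% and WT at 19.7% with 3 ppm, so the order of the genotypes differed there. This bin was not tested. The upstream flank was at 84.6% against 75.1% at 30 ppm, which was not called (9.48 points, 1.88 to 16.6), and at 87.4% against 65.7% at 3 ppm, which was (21.7 points, 14.9 to 28.2, Fisher adjusted p 9.41e-08), though not with at least 10 reads per CpG (14.4 points). Downstream of the start, KO exceeded WT at both diets, with 64.6% against 37.4% at 30 ppm (27.2 points, 16.7 to 36.8, Fisher adjusted p 2.45e-05) and 61.5% against 44.9% at 3 ppm (16.6 points, 7.22 to 25.6, Fisher adjusted p 0.0077). With all libraries thinned to equal mean depth, the 3 ppm difference of this flank was 13.9 points and no longer called. With at least 10 reads per CpG the flank could not be scored at either diet. The gene body was at 83.3, 77.5, 81.3 and 76.6%.

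The named tile of Grhl3, 1.13 kb after the start in an intron, was at 62.9% against 34.6% at 30 ppm and at 61.3% against 33.5% at 3 ppm, so the libraries of a genotype lay within 2 points of each other. It was called at both diets, with Fisher adjusted p values of 0.000158 and 5.43e-05. Its most CpG-rich stretch, at chr4:135572489-135572720 and written 5′ to 3′ on the minus strand, is shown with the 250 bases just before the start of Grhl3, the first because it lies in the named tile and the second to show the bases at the start, with CpGs in capitals.
Grhl3 intron tile: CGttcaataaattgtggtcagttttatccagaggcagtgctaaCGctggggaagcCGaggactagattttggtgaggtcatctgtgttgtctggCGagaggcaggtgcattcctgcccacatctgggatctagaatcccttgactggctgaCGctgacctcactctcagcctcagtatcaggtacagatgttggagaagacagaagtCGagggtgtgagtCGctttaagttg
Grhl3 before the start: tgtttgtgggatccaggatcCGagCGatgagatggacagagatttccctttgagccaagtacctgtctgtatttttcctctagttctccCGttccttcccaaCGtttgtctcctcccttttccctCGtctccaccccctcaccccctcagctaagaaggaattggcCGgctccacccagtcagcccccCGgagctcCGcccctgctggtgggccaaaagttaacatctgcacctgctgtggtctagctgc
The intron stretch holds 7 CpGs, all measured, at 62.4% in the 30 ppm KO, 30.4% in the 30 ppm WT, 61.3% in the 3 ppm KO and 28.4% in the 3 ppm WT. The bases before the start (chr4:135573631-135573880, minus strand) hold 8 CpGs, of which 2 were measured. Over these 2, KO was above WT at both diets, at 14.7% against 6.25% at 30 ppm and 20.5% against 12.5% at 3 ppm. Only 16 to 39 reads per library covered them. In the deposited regions of higher methylation, Grhl3 had 1 at 30 ppm, 6.43 kb into the gene, with 77.8% in KO and 32.4% in WT over 4 CpGs. Only 27 and 34 reads gave these levels, and at 3 ppm the same CpGs were at 61.3% in KO and 31.4% in WT. Grhl3 had another at 3 ppm, 1.60 kb before the start, with 96.3% in KO and 54.6% in WT over 8 CpGs. At 30 ppm these 8 CpGs were at 84.4% in KO and 71.6% in WT. Surface ectoderm markers, whose start windows had medians of 34.8% in the 30 ppm KO, 32.0% in the 30 ppm WT, 28.6% in the 3 ppm KO and 46.9% in the 3 ppm WT, were thus higher in KO by the median under the 30 ppm diet and lower in KO under the 3 ppm diet, and their part in these results was not tested.

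Alx1, a homeobox factor of the cranial mesenchyme, was higher in KO before its start and inside the gene at both diets. It lies at chr10:102998707-103030215 on the minus strand. Its start window was at 3.35, 1.44, 4.25 and 2.68% in the order 30 ppm KO, 30 ppm WT, 3 ppm KO and 3 ppm WT, and its downstream flank was at 0.786 to 2.77%. In the upstream flank KO stood at 29.6% against 9.71% at 30 ppm and at 25.3% against 10.9% at 3 ppm, with the Wilson intervals of KO and WT apart at both diets. The differences were 19.9 points (12.2 to 27.4, Fisher adjusted p 6.78e-05) and 14.4 points (8.503 to 20.04, Fisher adjusted p 0.000203). The principal transcript of Alx1 starts 1438 bp further in, and with that start the upstream flank gave 7.43 and 7.66 points and no call. The gene body was at 74.9% against 68.9% at 30 ppm and at 75.3% against 70.6% at 3 ppm.

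The tile with the largest mean difference among all 10 genes lay in Alx1, 4.71 kb into the gene over a coding exon. There KO was at 51.3% and 60.6% and WT at 20.6% and 20.1%, which is 30.7 points at 30 ppm (Fisher adjusted p 1.16e-07) and 40.5 points at 3 ppm (Fisher adjusted p 1.27e-15). The stretch at chr10:103025342-103025641, written on the minus strand, is shown because it is the most CpG-rich stretch of this tile, with 7 of its 11 measured CpGs.
Alx1 tile: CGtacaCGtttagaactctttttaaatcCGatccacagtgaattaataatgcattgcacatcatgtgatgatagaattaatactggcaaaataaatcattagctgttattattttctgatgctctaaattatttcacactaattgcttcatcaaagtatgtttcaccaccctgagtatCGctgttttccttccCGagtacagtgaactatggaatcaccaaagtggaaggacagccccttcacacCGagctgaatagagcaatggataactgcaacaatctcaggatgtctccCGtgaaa
All 7 CpGs of the stretch were measured, and they stood at 54.9, 20.3, 57.4 and 24.6% in the same order. A deposited region of higher methylation at 3 ppm, 4.91 kb into the gene, fell in the same tile, with 61.2% in the 3 ppm KO and 15.6% in the 3 ppm WT. The same 7 CpGs of that region were at 46.2% and 13.4% in the 30 ppm KO and WT.

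Twist1, a basic helix-loop-helix factor of the cranial mesenchyme, lies at chr12:33957671-33959829 on the plus strand and is short enough that no CpG counted as gene body. Levels in its flanks were low but higher in KO on both sides. Its start window, with 9 CpGs, was lower in KO and not called. There KO was at 1.59% and WT at 3.17% with 30 ppm, and KO at 0.952% and WT at 6.06% with 3 ppm. Few methylated reads gave these levels. At 30 ppm they were 1 of 63 in KO and 2 of 63 in WT, and at 3 ppm 1 of 105 and 4 of 66. The upstream flank was at 10.9% against 4.30% at 30 ppm and at 10.3% against 4.70% at 3 ppm, with Fisher adjusted p values of 0.00919 and 0.0128 and differences of 6.61 and 5.63 points, below the minimum of 10. In the downstream flank, levels of 13.2% against 5.95% at 30 ppm and 16.8% against 6.67% at 3 ppm gave 7.30 and 10.2 points, and the second was called (Fisher adjusted p 0.000311). The bin from 2.5 to 3 kb after the start, with 4 CpGs, was at 51.2% against 20% at 30 ppm and at 50.7% against 26.0% at 3 ppm. It had the largest difference of the Twist1 bins within 10 kb at each diet and was not tested. This bin and part of the downstream flank lie past the end of the gene, which is 2159 bp long. The named tile, 3.17 kb before the start, was at 18.4, 11.54, 28.5 and 10.2%, and was called at 3 ppm (18.3 points, Fisher adjusted p 0.0395). Its stretch at chr12:33954790-33954956 on the plus strand has 5 CpGs, all measured, at 16.3, 7.23, 25.5 and 4.84%.
Twist1 upstream tile: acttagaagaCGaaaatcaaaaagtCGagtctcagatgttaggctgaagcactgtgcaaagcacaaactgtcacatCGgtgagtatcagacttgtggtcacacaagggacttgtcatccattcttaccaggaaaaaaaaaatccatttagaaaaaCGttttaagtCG

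Cited2, which binds the acetyltransferases CBP and p300, lies at chr10:17723218-17725674 on the plus strand and also has no gene body by this definition. Its downstream flank, which reaches past the end of the gene, was at 35.6% in the 30 ppm KO, 18.8% in the 30 ppm WT, 26.7% in the 3 ppm KO and 25.3% in the 3 ppm WT. The 16.8 points at 30 ppm (9.03 to 24.3) were called with a Fisher adjusted p of 0.000483, and the 1.40 points at 3 ppm (-5.55 to 8.21) were not. A Wald test of the log odds ratios of KO to WT between the diets did not pass (Wald adjusted p 0.159). The upstream flank was at 37.6, 42.3, 39.5 and 35.3%, with KO below WT at 30 ppm and above it at 3 ppm and neither called. No tile of Cited2 was called.

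Pax3, Tfap2a and Zic2, factors of the dorsal neural tube and neural crest, had very broad unmethylated regions, and little differed near their starts. Pax3 lies at chr1:78101267-78197134 on the minus strand, and its start window and both flanks were between 0 and 3.83% in all libraries. The 0 was the upstream flank of the 30 ppm WT, where 163 reads allow up to 1.84%. Along its body of 908 CpGs, Pax3 was at 65.1% against 59.6% at 30 ppm, a difference of 5.57 points (4.45 to 6.68), and at 63.8% against 63.3% at 3 ppm, a difference of 0.482 points (-0.481 to 1.45). Of the 98 tiles of Pax3, 6 were called higher in KO at 30 ppm and 2 at 3 ppm, beside 1.13% and 1.10% of all tiles. Called at both diets was 1 tile, beside 0.367% of all tiles. This tile lay 37.6 kb into the gene in an intron, at 67.8, 50.0, 69.9 and 56.0%. Its stretch at chr1:78159649-78159948, on the minus strand, holds 12 CpGs, all measured, at 72.9, 59.1, 77.2 and 66.2%.
Pax3 intron tile: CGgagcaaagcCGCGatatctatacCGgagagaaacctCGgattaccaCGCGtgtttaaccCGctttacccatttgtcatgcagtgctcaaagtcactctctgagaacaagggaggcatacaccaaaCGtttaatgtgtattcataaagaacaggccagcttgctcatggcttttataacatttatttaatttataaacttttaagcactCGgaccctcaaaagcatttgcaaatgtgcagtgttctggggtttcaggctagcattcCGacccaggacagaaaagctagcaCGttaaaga

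Tfap2a, at chr13:40715302-40738376 on the minus strand, was at 1.76 to 7.03% in its start window and flanks. The principal transcript of Tfap2a starts 4553 bp further in, inside the window scored here as gene body. Its body was also low, at 19.4% against 12.4% at 30 ppm and 16.7% against 11.8% at 3 ppm. The differences of 7.03 and 4.94 points had Fisher adjusted p values of 1.61e-12 and 2.2e-09 but stayed under 10 points, and KO was above WT at both diets. The named tile of Tfap2a, 18.9 kb into the gene and over coding sequence, was at 32.7, 24.1, 41.5 and 20.2% and was called at 3 ppm (21.3 points, Fisher adjusted p 0.0014) and not at 30 ppm (8.61 points, 0.691). Its stretch, chr13:40719662-40719961 on the minus strand, has 11 CpGs, of which 5 were measured.
Tfap2a tile: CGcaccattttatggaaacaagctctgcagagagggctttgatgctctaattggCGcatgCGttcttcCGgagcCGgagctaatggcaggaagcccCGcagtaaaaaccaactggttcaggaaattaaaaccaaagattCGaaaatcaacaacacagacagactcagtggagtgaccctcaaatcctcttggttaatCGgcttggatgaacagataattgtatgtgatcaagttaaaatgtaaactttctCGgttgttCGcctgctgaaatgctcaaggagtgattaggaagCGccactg
Zic2, at chr14:122475435-122479852 on the plus strand, was at 0.837 to 4.36% in both flanks and its body, with differences from -0.663 to 1.18 points, and no tile of it was called.

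Shroom3 constricts the apical side of neural epithelial cells through their apical actin. At chr5:92683435-92965318 on the plus strand it is the longest of the 10 genes, with 2840 CpGs in its body. Its start window was at 8.37, 5.00, 6.51 and 5.26%, and its upstream flank was at 81.5 to 84.2% in all 4 libraries. In the downstream flank the 30 ppm WT was lowest at 66.9%, against 80.0% in the 30 ppm KO, 74.9% in the 3 ppm KO and 76.4% in the 3 ppm WT. The 13.1 points at 30 ppm (4.81 to 20.9) were called with a Fisher adjusted p of 0.0183, which was lost with at least 10 reads per CpG (13.9 points), and KO and WT differed by -1.45 points at 3 ppm (-8.42 to 5.80). Its body stood at 83.9% against 80.3% at 30 ppm and at 82.6% against 81.7% at 3 ppm.

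Of the 273 tiles of Shroom3, 14 were called higher in KO at 30 ppm and 5 at 3 ppm, with 3 called at both. Of all tiles, 1.13% were called at 30 ppm, 1.10% at 3 ppm and 0.367% at both. The named tile lay 216 kb into the gene, in an intron 1012 bp after the start of a shorter protein-coding transcript. It was at 57.5% against 20.6% at 30 ppm (36.9 points, Fisher adjusted p 4.24e-10) and at 49.8% against 26.2% at 3 ppm (23.7 points, Fisher adjusted p 3.84e-05). The stretch at chr5:92899005-92899122 on the plus strand is shown because it is the most CpG-rich stretch of this tile, and it holds 6 of its 12 measured CpGs.
Shroom3 internal tile: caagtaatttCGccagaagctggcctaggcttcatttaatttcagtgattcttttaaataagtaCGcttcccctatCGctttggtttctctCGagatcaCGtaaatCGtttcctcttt
All 6 CpGs were measured, at 72.3% in the 30 ppm KO, 31.8% in the 30 ppm WT, 69.7% in the 3 ppm KO and 32.2% in the 3 ppm WT. The other Shroom3 tiles called at both diets were 173 kb and 236 kb into the gene. The first was at 90.5, 71.5, 85.4 and 72.4%, and the second was at 70.1, 43.2, 62.4 and 47.9%. Deposited regions of higher methylation at 30 ppm lay in both of these and 222 kb into the gene, and 1 at 3 ppm lay in the first of them but held no CpG with enough reads in all libraries.

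Marcks, an actin-binding substrate of protein kinase C, lies at chr10:37133375-37138920 on the minus strand. Its start window and flanks were at 0.576 to 4.76%, with differences from -1.37 to 1.83 points. The remaining 15 CpGs of the gene were at 75.1% against 65.1% at 30 ppm (10.03 points, 2.68 to 17.1, Fisher adjusted p 0.0221), which was called, and at 75.6% against 70.4% at 3 ppm (5.18 points, -1.10 to 11.54), which was not. The call at 30 ppm was lost with equal mean depth, at 8.64 points, and with at least 10 reads, at 8.98 points, and over the whole annotated gene the difference was -0.460 points. No tile of Marcks was called.

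**Figure D2:**
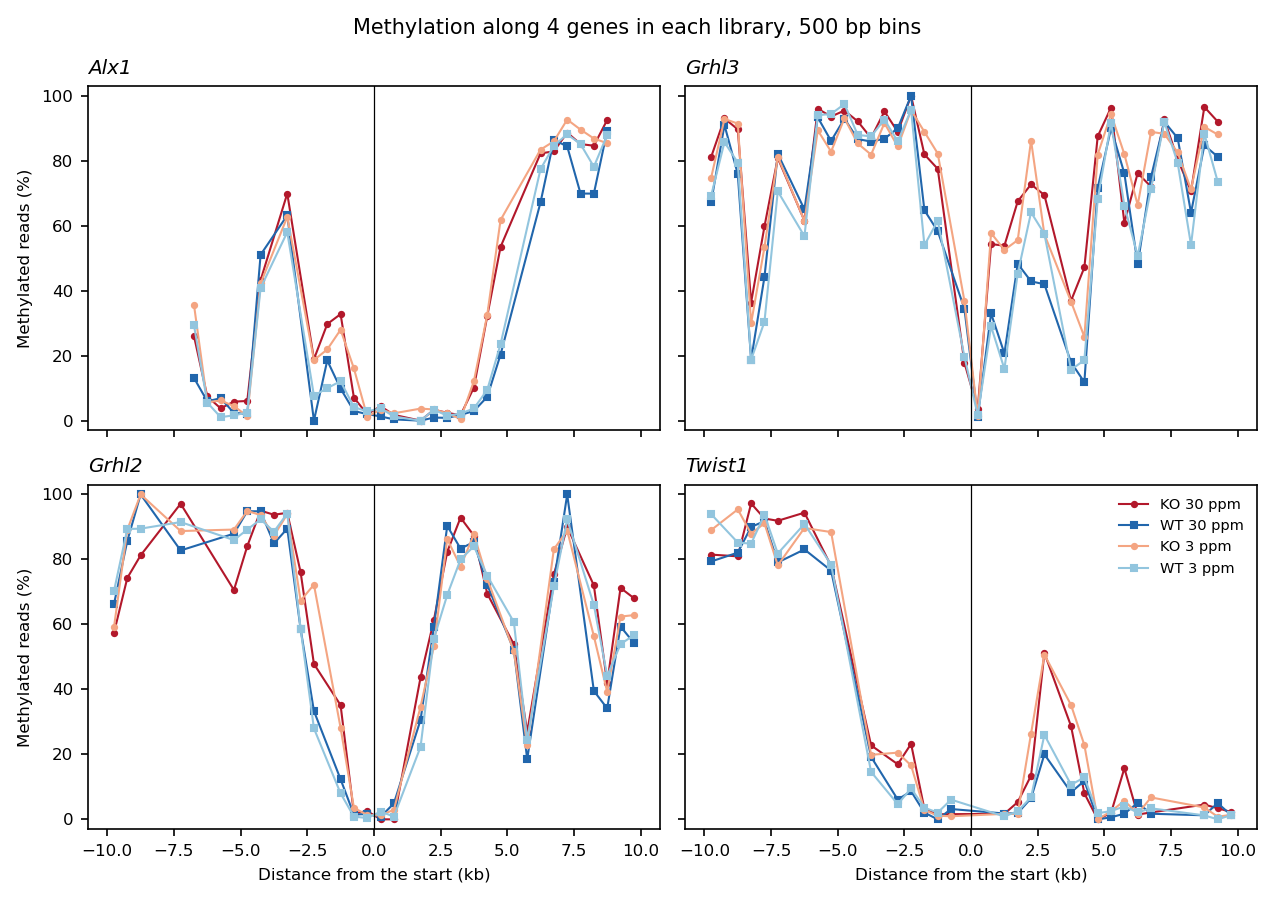
Share of methylated reads (%, y axis) in 500 bp bins against distance from the start (kb, x axis, positive values downstream of the start) for Alx1, Grhl3, Grhl2 and Twist1, with 1 line for each library. Twist1 is 2159 bp long, so most of its positive values lie past its end. Around Alx1 the KO and WT lines meet near 0 at the start and separate 1 to 2 kb before it and 4 to 5 kb after it.

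The differences were also set out by distance from the unmethylated region of each start. The region around each start in which the mean of the 4 libraries stayed under 20% in 500 bp bins was 19500 bp wide in Tfap2a, 17500 in Pax3, 11500 in Zic2, 6500 in Twist1, 5000 in Alx1 and Marcks, 2000 in Grhl2, Cited2 and Shroom3, and 500 in Grhl3. The median over all 11223 genes with such a region was 1500 bp, and 90% of them were at or under 2500 bp. Inside the region, KO minus WT ran from -0.589 to 5.41 points over the 10 genes and both diets, and Twist1 was the highest. In the 2 kb on each side of it, the difference was 24.6 and 23.9 points for Alx1 at 30 and 3 ppm, 13.4 and 11.9 for Grhl2, 12.8 and 22.2 for Grhl3, and 11.6 and 16.3 for Twist1. The other 6 genes had edge differences of 4.44 to 9.84 points at 30 ppm and of -0.21 to 4.37 points at 3 ppm. Over all genes the median edge difference was 6.01 points at 30 ppm and 4.53 at 3 ppm, and the median inside was 2.55 and 2.41. The KO libraries count in the mean that sets the border, so a gain in KO can itself move a bin from inside to the edge. In Alx1 the edge was at 14.1% in the 30 ppm WT and 14.4% in the 3 ppm WT, under the 20% limit. The split into inside and edge thus describes these values and tests nothing.

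**Figure D3:**
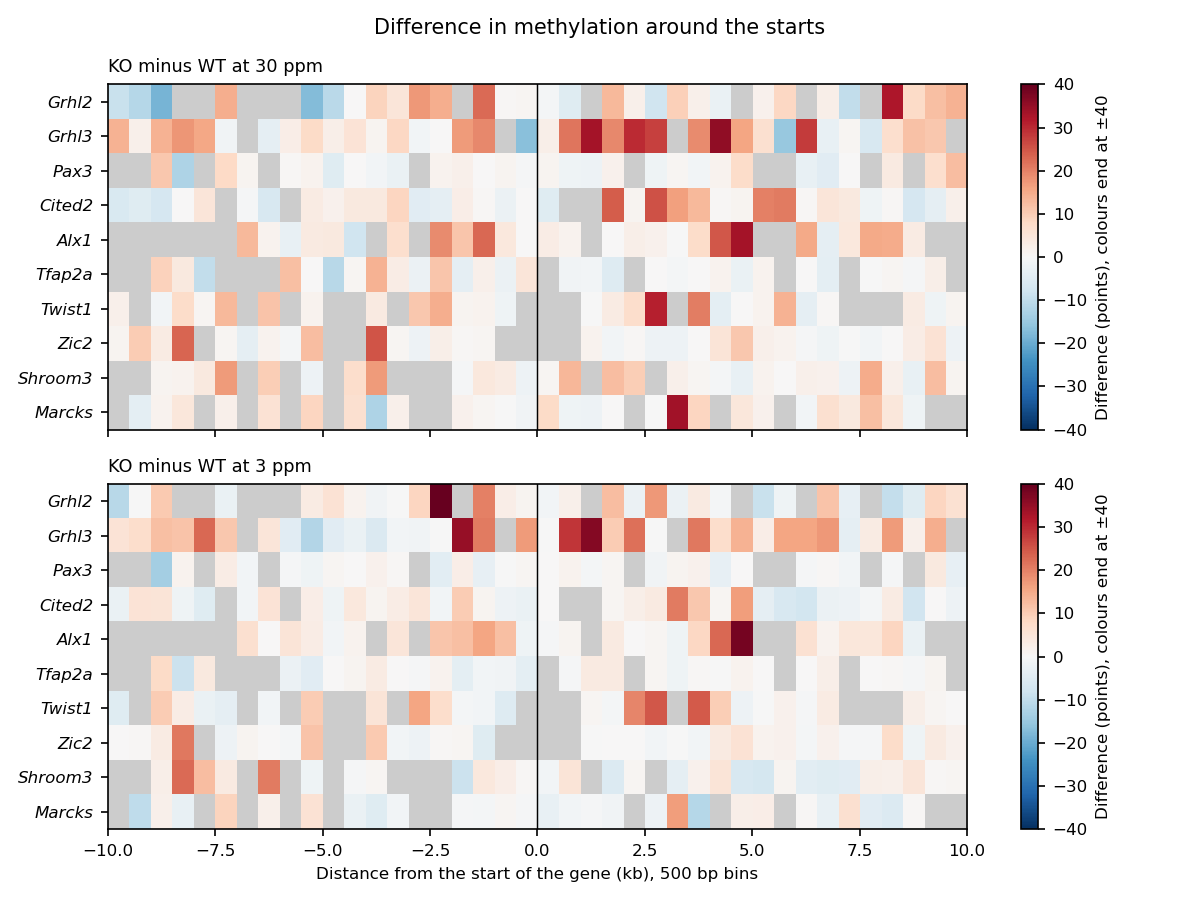
KO minus WT in percentage points (colour, red for higher in KO) in 500 bp bins from 10 kb before to 10 kb after the start (x axis, kb) of each gene (rows), with 30 ppm above and 3 ppm below. Grey bins had fewer than 3 CpGs. Red bins flank the pale centre in Alx1, Grhl2 and Twist1 at both diets, and in Grhl3 the bin just before the start is at -16.6 points with 30 ppm.

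Calls were then counted over the 10 genes and set beside the share of all genes called. Among the 9 start windows tested, 0 were called higher in KO at 30 ppm and 1 at 3 ppm by Fisher's exact test, where 15.4% and 16.6% of all genes were. At an unadjusted p under 0.05, 2 start windows were higher in KO at 30 ppm, beside 31.0% of all genes, and limma called 1 start window over both diets, lower in KO. The median difference of the 9 was -0.42 points at 30 ppm and 0.60 at 3 ppm, beside 3.93 and 3.31 over all genes. Upstream flanks were called in 2 of 10 genes at 30 ppm and 3 of 10 at 3 ppm, against backgrounds of 5.21% and 4.56%, with medians of 1.91 and 3.19 points beside 2.42 and 1.16. Downstream flanks were called in 3 and 2 of 10, against 12.4% and 10.5%. Gene bodies were called in 1 of 8 at 30 ppm and 0 of 8 at 3 ppm by Fisher's exact test, where 2.00% and 1.75% of all genes were, and limma called 1 over both diets. On the fraction scale limma called more bodies, as given below. Without the minimum of 10 points, 7 of the 8 bodies passed at 30 ppm and 4 at 3 ppm (4 at an unadjusted p under 0.05, beside 27.7% of all bodies), all higher in KO, and the same held for 40.4% and 21.8% of all bodies. By Fisher's exact test 0 windows of the 10 genes were called lower in KO, where 0.145% of all windows were at 30 ppm and 0.253% at 3 ppm. At an unadjusted p under 0.05, 1 of 37 was lower at each diet, beside 1.17% and 3.70%. At least 1 window was called higher in 6 of 10 genes at 30 ppm and 4 of 10 at 3 ppm, beside 28.4% and 26.8% of all genes. The same window was called at both diets in 3 genes, Grhl2, Grhl3 and Alx1, and in 13.7% of all genes.

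At the finer scale of 1 kb tiles, 27 of 616 tiles of the 10 genes (4.38%) were called higher in KO at 30 ppm and 17 (2.76%) at 3 ppm, against 1.13% and 1.10% of all tiles. Of these, 8 were called at both diets, 3 in Shroom3, 2 in Grhl3, 2 in Alx1 and 1 in Pax3, beside a background of 0.367%. With at least 10 reads per CpG the counts were 14 and 7 of 517 (2.71% and 1.35%), beside 0.681% and 0.561% of all tiles. With the robust SD over all tiles they were 12 and 7 of 616 (1.95% and 1.14%), beside 0.412% and 0.464%, and with the libraries thinned to equal mean depth the 3 ppm count was 8 of 608 (1.32%), beside 0.554%. All tiles include those outside genes, while tiles of the 10 genes lie in a gene or up to 3 kb before it. The 2 sets were not matched for CpG content, so the shares are not of like tiles. Shroom3, with 273 of the 616 tiles, held 14 of the 27 called at 30 ppm and 5 of the 17 at 3 ppm. By Fisher's exact test, 0 of the 616 tiles were called lower in KO at either diet, where 0.0487% and 0.114% of all tiles were. Between the diets, 0 of the 616 were called in KO and 1 in WT, a Shroom3 tile, against 0.0683% and 0.0470% of all tiles. The log odds ratio of KO to WT differed between the diets in 2 of the 616, both in Shroom3, by the Wald test, against 0.0692% of all tiles. Among the deposited regions of higher methylation, 2 of the 10 genes held 1 or more at 30 ppm and 3 held 1 or more at 3 ppm, where 11.6% and 11.9% of all genes did.

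These calls rest on the counting error of reads. When the spread over all windows of the genome took its place, 8 of the 12 called window differences were lost, and those that passed were the upstream flanks of Alx1 at 30 ppm and of Grhl2 and Grhl3 at 3 ppm and the downstream flank of Grhl3 at 30 ppm. limma on log2 ratios of methylated to unmethylated reads, with genotype and diet as terms over the 4 libraries, called 5 of 37 windows for genotype, against 5.21% of all windows. Higher in KO were the upstream flank of Alx1 (limma adjusted p 0.0123), the downstream flanks of Grhl3 (0.0466) and Twist1 (0.0351) and the body of Tfap2a (0.013). The start window of Cited2, with its 0 methylated reads in both KO libraries, was lower (limma adjusted p 0.0261). The Cited2 call was lost with no read minimum (0.115), with at least 10 reads (0.0651) and on the fraction scale (0.585), and with no minimum the differences were -0.909 points at 30 ppm and -0.682 at 3 ppm. The Alx1 flank was also lost with at least 10 reads (0.0899), the Grhl3 flank with a pseudocount of 0.5 (0.0666), and the Twist1 flank with both (0.194 and 0.052) and on the fraction scale (0.108). The Grhl3 flank could not be scored with at least 10 reads. Under every limma setting tried, the body of Tfap2a was called. With at least 10 reads, limma called 2 of the 32 windows scored, beside 1046 of all 69619. These were the body of Tfap2a and the body of Zic2 (limma adjusted p 0.00477), and the second was not called otherwise. On the fraction scale it called 7 of 37, beside 3042 of all 77749 windows. Gained there were the bodies of Alx1 (limma adjusted p 0.0231), Grhl3 (0.0241) and Marcks (0.013) and the upstream flank of Grhl2 (0.0221). With the start of the principal transcript it called 7 of 37, beside 4741 of 76973. Gained there were the Marcks body (0.0482) and the Alx1 downstream flank (0.0426).

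Between the diets, 0 of 37 windows of the 10 genes were called in either genotype by Fisher's exact test, where 0.489% of all windows were called in KO and 0.464% in WT. At an unadjusted p under 0.05 there were 7 of 37 in KO and 8 of 37 in WT, beside 12.6% and 12.8% of all windows. limma called 0 of 37 windows for diet, where it called 0.163% of all windows, and 2 of 37 had an unadjusted p under 0.05, beside 5.1% of all windows. Without the minimum of 10 points, 3 of 8 gene bodies passed in KO (Grhl2, Tfap2a and Shroom3, all higher at 30 ppm) and 2 of 8 in WT (Pax3 and Shroom3, both lower at 30 ppm), where 7.06% and 9.49% of all bodies did. The largest of these was the body of Pax3 in WT, at 59.6% with 30 ppm and 63.3% with 3 ppm, a difference of -3.72 points (-4.79 to -2.65, Fisher adjusted p 2.41e-09). In Shroom3 the KO body was 1.29 points higher and the WT body was 1.34 points lower at 30 ppm than at 3 ppm.

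A Wald test compared the log odds ratio of KO to WT between the diets, and not the difference in points. It passed in the bodies of Pax3, Shroom3 and Grhl2 and in no start window or flank of the 10 genes. In Pax3, KO minus WT was 5.57 points at 30 ppm and 0.482 at 3 ppm (Wald adjusted p 2.16e-09). In Shroom3 it was 3.56 and 0.925 points (Wald adjusted p 8.45e-11), and in Grhl2 2.80 and 0.302 points (Wald adjusted p 0.000891). Such a difference was found in 15.0% of all gene bodies and in 0.804% of all start windows and flanks. Over all gene bodies the median KO minus WT was 1.65 points at 30 ppm and 0.523 at 3 ppm. Each difference rests on 2 libraries, so the diet and the individual embryos cannot be told apart.

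**Figure D4:**
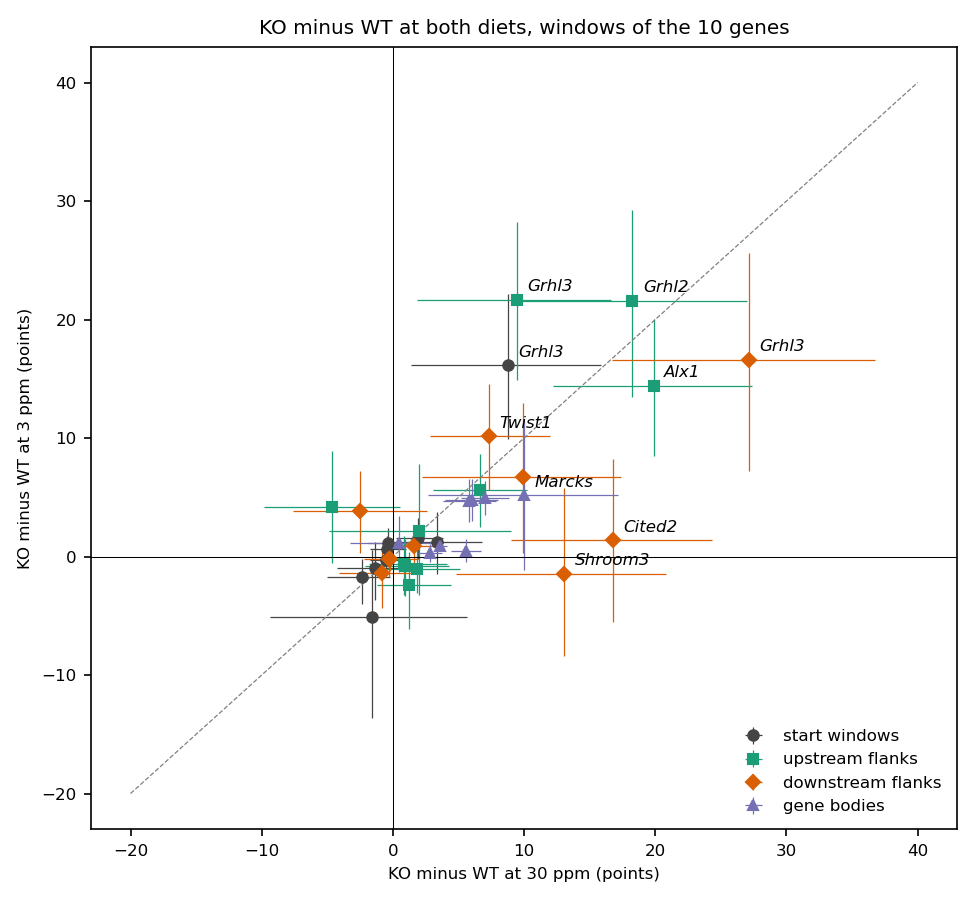
KO minus WT at 3 ppm (y axis, points) against KO minus WT at 30 ppm (x axis, points) for the 37 scored windows of the 10 genes, with 95% Newcombe intervals and the line of equal values dashed. Names mark windows with 10 points or more at either diet. Grhl2, Grhl3 and Alx1 lie at the upper right, and the downstream flanks of Cited2 and Shroom3 lie near 0 at 3 ppm.

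A list of 40 other genes whose loss gives cranial closure defects in mice was scored in the same way. At least 1 window was called higher in KO in 16 of the 40 at 30 ppm and in 10 of the 40 at 3 ppm, beside the 28.4% and 26.8% of all genes given above, and none was called lower. With the robust SD these were 5 and 2 of the 40, beside 6.63% and 6.04% of all genes, and without the minimum of 10 points 33 and 21, beside 53.7% and 45.2%. The same window was called at both diets in 6 of the 40, near the 13.7% of all genes, and the values of those named here are a description. Sufu, a negative regulator of hedgehog signalling, had the largest mean difference, in its downstream flank, at 71.1% (KO) and 44.0% (WT) for 30 ppm and at 70.0% (KO) and 51.1% (WT) for 3 ppm. Ptch1, the hedgehog receptor, differed in its start window, at 34.6% against 16.7% and 34.0% against 13.2%. Gli3, a transcription factor of the same pathway, differed in its upstream flank, at 65.5% against 45.9% and 70.9% against 58.3%. Vcl, an actin linker at cell junctions, and Smarca4, the ATPase of a chromatin remodelling complex, differed in their downstream flanks, by 20.1 and 16.6 points and by 16.3 and 14.2 points. Only these 5 are described, by the limit on the number named.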

How the data were processed

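Genomic DNA of individual E11.5 brains was bisulfite converted and sequenced in 1 library each. Per the submitters' processing notes and the study's methods, reads were trimmed with Trim Galore 0.6.10, aligned to GRCm38.p6 with Bismark 0.23.1, deduplicated and extracted, and the CpG counts were merged to 1 strand. The deposited tables give, per CpG, the methylated fraction and the read count. The deposited region lists, called by the authors with DSS between single libraries, give positions only. Methylated reads were fraction times reads (largest gap to a whole number 4.37e-11). Positions in the tables count from 0, and all 15871451 CpGs listed in all 4 tables fell on a CG of GRCm38.p6 after adding 1. Mitochondrial CpGs read 0.914 to 0.938% methylated.

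Each CpG needed 5 reads or more in every library (14907672 CpGs did), and each window 3 such CpGs. Fisher's exact test, a Wald test and limma 3.58.1 in R 4.3.3 (pseudocount 1, 1 residual degree of freedom) were fitted over all genes. The Wald test took the difference between the diets of the log odds ratios of KO to WT, with 0.5 added to each count. P values were Benjamini-Hochberg adjusted per window kind, and the tests were tried on simulated data, with Python 3.11.15. Tiles of 1 kb were treated alike. The genes, the lists and the rule for naming (all 10 genes, the called tile of each with the largest mean difference, those called at both diets first, and up to 5 other closure genes called at both diets) were chosen with earlier results of these data known. Alternatives changed the read minimum, depth, window borders, annotated start, minimum difference, pseudocount and scale, left out variant-like CpGs, or divided z by its robust SD. Sex chromosomes were not used here. Some sequences are not reported here.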

Additional observations from a re-analysis of the deposited data

Results flagged for a closer look

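In 5 places of the closure genes, KO against WT differed between 30 ppm and 3 ppm by the Wald test over all windows or tiles. Each difference rests on 1 library per group. The test compares log odds ratios, while the differences below are in points. In gene bodies, the difference at 30 ppm exceeded that at 3 ppm by 5.08 points in Pax3, 2.63 points in Shroom3 and 2.5 points in Grhl2. In Pax3 the WT libraries were at 59.6% with 30 ppm and 63.3% with 3 ppm, and the KO libraries were at 65.1% and 63.8%. Of all gene bodies, 15.0% differed in this way. Their median KO minus WT was also larger at 30 ppm, at 1.65 points against 0.523 at 3 ppm.

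In 2 intronic tiles of Shroom3, where 0.0692% of all tiles passed the Wald test, KO was called higher at 30 ppm, and at 3 ppm the differences of -5.28 and -7.41 points did not pass (Fisher adjusted p 0.735 and 0.306). At 161 kb after the start the libraries were at 74.8% in the 30 ppm KO, 54.5% in the 30 ppm WT, 68.3% in the 3 ppm KO and 73.5% in the 3 ppm WT, so KO minus WT was 25.6 points larger at 30 ppm (Wald adjusted p 0.0241). At 182 kb the levels were 87.6, 74.1, 77.4 and 84.8%, a change of 20.9 points (Wald adjusted p 0.0226). The 30 ppm WT library was the lowest of the 4 in both tiles. The tile at 161 kb was also the single tile of the 616 called between the diets, lower at 30 ppm in WT, where 0.0470% of all tiles were called in either direction.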

How the results depend on the processing

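All 12 called window differences held their call when every listed CpG was used. Leaving out variant-like CpGs tested nothing for these windows, since the closure genes had none and their levels could not change. With at least 10 reads per CpG, 10 of the 12 could be scored, and the downstream flank of Grhl3 could not at either diet. Of these 10, 4 lost the call, namely the upstream flanks of Grhl2 and Grhl3 at 3 ppm, and Shroom3 downstream and the Marcks body at 30 ppm. The counts of called genes were 1 for upstream flanks at 3 ppm and, with that Grhl3 flank not scored, 1 and 1 for downstream flanks at 30 and 3 ppm. Tiles called were 14 and 7. For genotype, limma called 2 of 32 windows with at least 10 reads, beside 1046 of all 69619. The Zic2 body, 1 of the 2, was not called with 5 reads. With a pseudocount of 0.5 limma called 3 of 37, beside 2668 of all 77749. It called 7 of 37 on the fraction scale and 7 of 37 with the start of the principal transcript, beside the counts of all windows given above. With equal mean depth, 1 downstream flank was called at 3 ppm, 0 gene bodies at 30 ppm and 8 tiles at 3 ppm. With the z value divided by a robust SD over all windows, 0 start windows were called at 3 ppm, 1 upstream and 1 downstream flank at 30 ppm, 0 downstream flanks at 3 ppm, 0 gene bodies at 30 ppm, 12 and 7 tiles, and 5 and 2 of the other closure genes at 30 and 3 ppm. Without the minimum of 10 points, 7 and 4 gene bodies, 33 and 21 other closure genes and, between the diets, 3 windows in KO and 2 in WT were called. With the start of the principal transcript 1 upstream flank was called at 30 ppm, with 500 bp each side 0 start windows at 3 ppm, and over the whole annotated gene Marcks was reversed at 30 ppm, to -0.46 points. Shares of all tiles under the read minimum, equal depth and the robust SD are given above with the tile counts. For the robust SD, no share of all genes was counted per kind of window. The causes were not tested.

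Leaving out a replicate was not possible with 1 library in each group. No paired analysis was possible because the embryos came from different litters, so no library had a littermate. The diet term of the limma fit is its only block. Few CpGs were measured at the starts of Zic2, Twist1 and Cited2, and the cause was not tested.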
